A study of Mus musculus with 2 samples.

Results

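Cells sense DNA and RNA in the cytosol through a short chain of proteins, and the 10 genes described here encode its main steps. They were chosen by these roles, with earlier results of these data known, and they are 10 of the 27998 genes listed in the files. The DNA sensor is cGAS, encoded by Mb21d1, and its adaptor is STING, encoded by Tmem173. The RNA sensors are RIG-I, encoded by Ddx58, and MDA5, encoded by Ifih1, and both signal through the adaptor MAVS. Both adaptors engage the kinases TBK1 and IKKε, encoded by Tbk1 and Ikbke, which activate the transcription factor IRF3, while NF-κB, with its subunit RELA, is activated in parallel. Trex1 encodes an exonuclease that removes cytosolic DNA and so limits the signal. STING can also be switched on by cGAMP, the messenger that cGAS makes, when it comes from another cell. In the brain this chain is best known from microglia and blood vessel cells.

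The study profiled dissociated telencephalic tissue of C57BL/6 mice at postnatal day 0 by droplet-based single-cell RNA sequencing, which counts each captured molecule by a unique molecular identifier (UMI) near its 3′ end. The libraries were 1 labelled WT and 1 labelled STINGf/f;Nestin-Cre (cKO), in which Cre under the nestin promoter acts in the neural lineage, while vessel cells, blood cells and microglia arise largely outside it. The study's text names the control STINGfl/fl, after the floxed allele, whereas its label reads WT. The number of animals behind each library and the deleted exons are not given in the sources used here, so a 3′ tag outside the deleted part checks nothing. With 1 library per genotype there is no replicate and no test, and every interval below is a 95% interval that covers counting error only. The limit given for a count of 0 is the level of 3 UMIs, a one-sided limit that lies below the upper end of the interval.

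After filtering, 6601 WT and 5974 cKO cells were kept, with medians of 6552 and 7537 UMIs per cell. Cells were placed in groups by the share of marker genes with a UMI, and 10 groups held at least 20 cells in both libraries. Xist counted 10 UMIs in WT but 71370 in cKO, and Y-linked genes counted 9771 and 6, so the genotype cannot be told apart from this difference in sex. Over the 16031 genes with at least 20 UMIs in both libraries together, the ratio of cKO over WT in counts per 1000000 UMIs (CPM) had a median of -0.28 on the log2 scale. In all, 21.7% of these genes were at least 2-fold lower and 3.26% at least 2-fold higher in cKO. With TMM factors, which centre the ratios on the bulk of genes, these shares were 15.2% and 6.46%. The share that was 2-fold lower was 42.8% among the 3426 genes with 20 to under 200 UMIs, 27.0% among the 5572 genes with 200 to under 2000 UMIs, and 7.25% among the 7033 genes above. The 9 members with any UMI lie in the lower classes, so their ratios are given beside these shares. The libraries shared 19 cell barcodes.

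Tmem173, Mavs, Mb21d1 and Irf3 were at least 2-fold lower in the cKO library, and no member was 2-fold higher. This was 4 of the 9 members with at least 20 UMIs, against 21.7% of all genes tested. By abundance it was 2 of 4 members, Tmem173 and Mb21d1, among genes of 20 to under 200 UMIs, where 42.8% of genes were as low. Among genes of 200 to under 2000 UMIs it was 2 of 5, Mavs and Irf3, against 27.0% of genes. The median log2 ratio of the 9 members was -0.84. Over all genes it was -0.82 at 20 to under 200 UMIs and -0.48 at 200 to under 2000. Tmem173 had 126 UMIs in 88 WT cells and 18 UMIs in 15 cKO cells, a log2 ratio of -2.79 (interval -3.59 to -2.07). Only 1.71% of genes tested had a lower ratio. Mavs had 192 and 39 UMIs, a log2 ratio of -2.28 (-2.82 to -1.78), with 3.71% of genes lower. Mb21d1 had 81 and 23 UMIs, a log2 ratio of -1.80 (-2.53 to -1.11), with 7.43% of genes lower. Irf3 had 788 and 228 UMIs, a log2 ratio of -1.77 (-1.99 to -1.56), with 7.75% of genes lower. The 4 ratios kept their side of the 2-fold limit with TMM factors, at -2.52, -2.02, -1.53 and -1.51. In sums over all cells, fewer cells of a type and less RNA per cell cannot be told apart, and the levels by cell group follow.

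The other members lay nearer to the bulk of genes. Tbk1 had 584 UMIs in WT and 888 in cKO, a log2 ratio of 0.62 (0.47 to 0.78), and 8.94% of genes tested had a higher ratio. Ddx58 had 242 and 174 UMIs (-0.46, -0.75 to -0.17) and Ifih1 had 76 and 42 UMIs (-0.84, -1.42 to -0.27). Ikbke had 31 and 27 UMIs (-0.18, -0.98 to 0.61). Rela had 1036 and 939 UMIs (-0.12, -0.25 to 0.01), and its ratio changed sign to 0.14 with TMM factors, as did that of Ikbke, to 0.08. Trex1 had 0 UMIs in every barcode of both libraries. In the GENCODE M21 annotation all 1147 exonic bases of Trex1 (chr9:109057933-109059734, minus strand, GRCm38) lie in exons of Atrip on the same strand, so the listed 0 says nothing of its level. Atrip, which encodes a DNA damage checkpoint protein, had 96 and 163 UMIs.

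**Figure D1:**
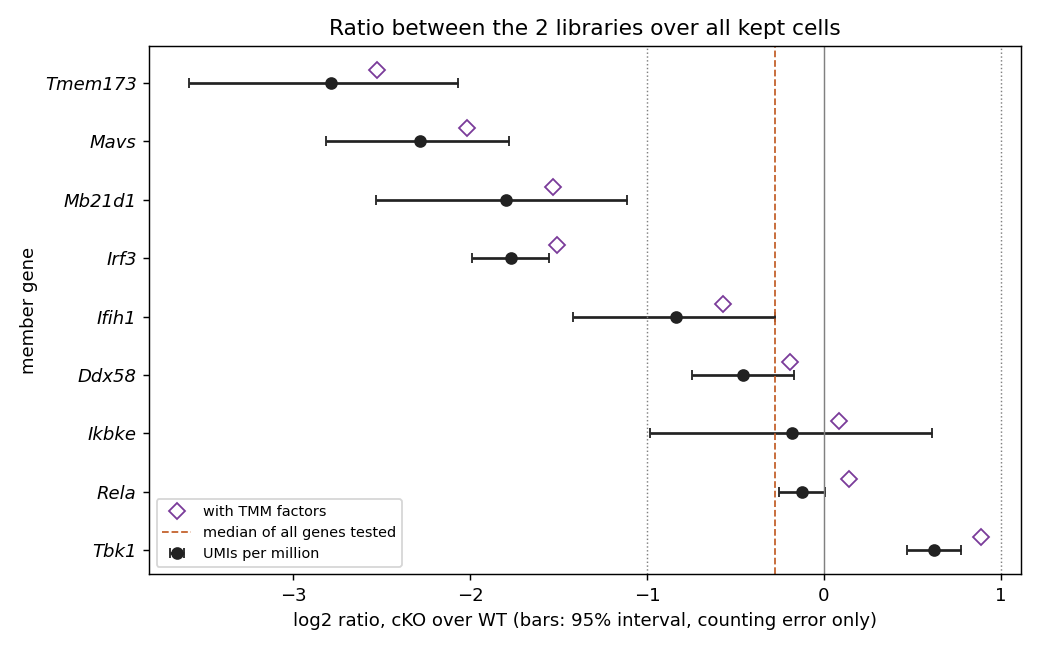
Log2 ratio of cKO over WT on the x axis for the 9 members with UMIs on the y axis, over all kept cells of 1 library each. Points are ratios of CPM with their 95% counting intervals, open diamonds the ratios with TMM factors, the dashed line the median of all genes tested (-0.28) and the dotted lines the 2-fold limits; Tmem173, Mavs, Mb21d1 and Irf3 lie past the lower limit on both scales.

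Tmem173 (ENSMUSG00000024349, chr18:35733679-35740554, minus strand, GRCm38) was examined by cell group, because it is the targeted gene. Its UMIs lay mainly outside the neural lineage. Of its 126 WT UMIs, 81 were in the 180 endothelial-like cells and 22 in the 61 microglia/macrophage-like cells. Its level was 32.3 CPM (interval 20.3 to 48.9) in WT microglia/macrophage-like cells and 21.1 CPM (16.8 to 26.3) in WT endothelial-like cells, and these intervals overlap. Under a stricter filter of 1000 genes or more and no more than 5% mitochondrial UMIs the values were 15.0 CPM from 1 UMI in 6 microglia/macrophage-like cells and 21.3 CPM from 29 UMIs in 66 endothelial-like cells, too few to give an order. The mural-like group, pericytes and smooth muscle of vessels, held 2 UMIs in 29 cells (11.9 CPM). Radial glia/astrocyte-like cells had 9 UMIs (1.74 CPM) and cycling progenitor-like cells 6 UMIs (1.32 CPM). No UMI was found in the 4052 WT or the 3940 cKO cells of the 3 neuron-like groups, at medians of 6694 and 7768 UMIs per cell. A count of 0 there allows up to 0.0853 CPM in WT and 0.0775 CPM in cKO (upper ends of the intervals 0.105 and 0.0954 CPM).

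In WT endothelial-like cells 28.3% held a Tmem173 UMI (51 of 180, Clopper-Pearson interval 21.9 to 35.5) and in WT microglia/macrophage-like cells 26.2% (16 of 61, 15.8 to 39.1). The 8 neural groups together held 17 UMIs in 16 of 5634 WT cells. These 16 cells were radial glia, cycling or intermediate progenitor-like, 11 of them had no marker UMI of endothelial cells or microglia, and 1 had at least 2 endothelial markers. Among all radial glia and progenitor-like WT cells 1.90% had at least 2 endothelial markers.

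Between the libraries, Tmem173 fell from 17 to 1 UMI in the radial glia and progenitor-like groups together, a log2 ratio of -3.96 (-9.35 to -1.29). It was also lower in cKO in groups outside the neural lineage. Endothelial-like cells went from 81 to 14 UMIs, or from 21.1 to 9.89 CPM (log2 ratio -1.10, -2.03 to -0.27). In those cells 16.0% of the 10521 genes tested had a lower ratio. Microglia/macrophage-like cells went from 22 to 3 UMIs, or from 32.3 to 6.43 CPM (-2.33, -4.71 to -0.59). Endothelial-like cells were also fewer in cKO, 70 against 180, and microglia/macrophage-like cells were 32 against 61. Under the stricter filter 66 WT and 10 cKO endothelial-like cells remained, with 29 and 3 Tmem173 UMIs, and the endothelial log2 ratio was -0.16. The endothelial difference did not keep its size there.

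**Figure D2:**
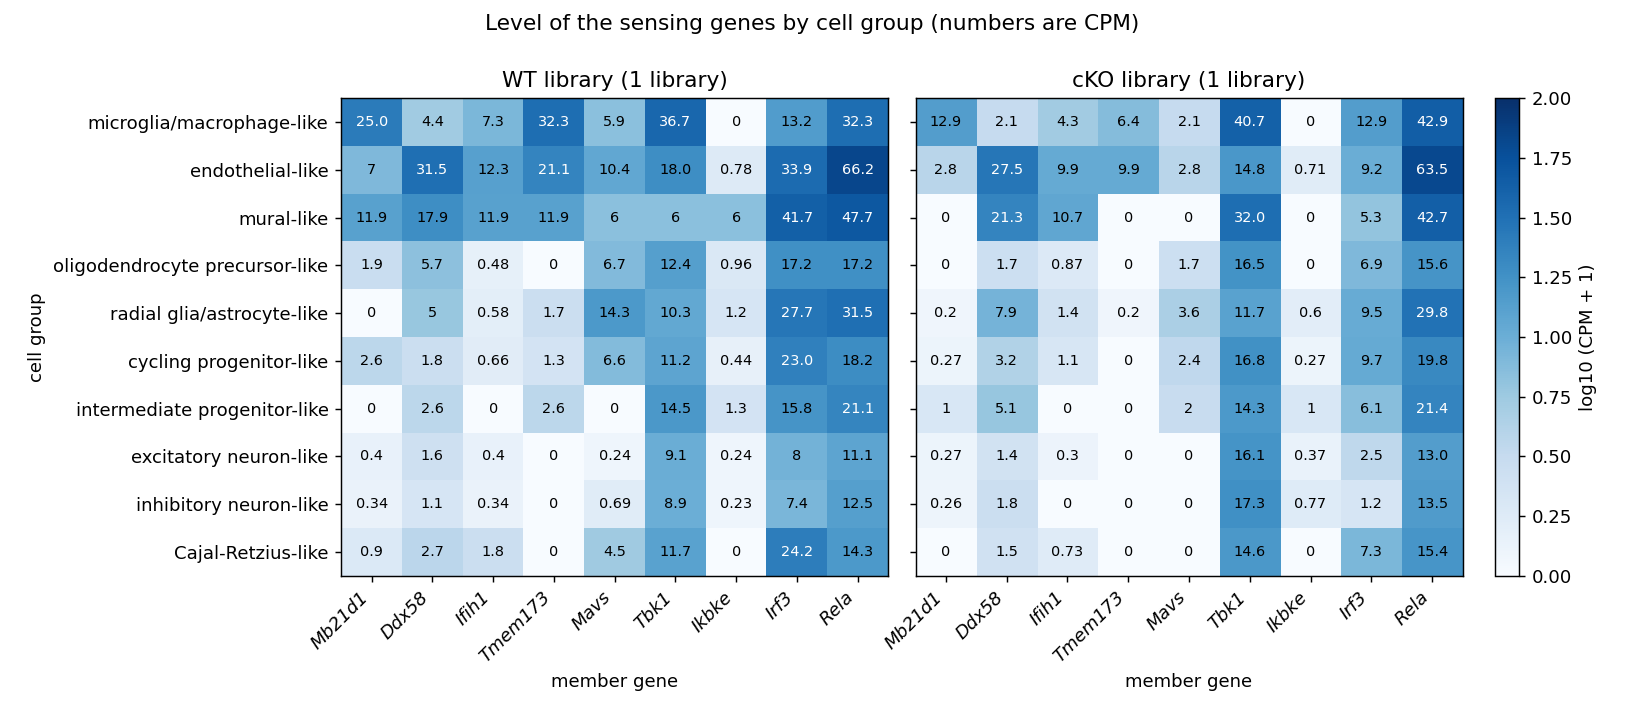
Level of 9 members (x axis) in 10 cell groups (y axis) in the WT library (left) and the cKO library (right), with CPM printed in each cell and the colour on a log10 (CPM + 1) scale. In WT, Tmem173 and Mb21d1 stand at 32.3 and 25.0 CPM in microglia/macrophage-like cells, of which the stricter filter left 6 cells with 1 and 0 UMIs, and near or at 0 in the neuron-like groups, while Tbk1 and Rela are found in every group.

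Mb21d1, the DNA sensor (ENSMUSG00000032344, Cgas in M21, chr9:78430526-78443237, minus strand), was alike in part. Among groups of at least 20 cells its highest WT levels were also in microglia/macrophage-like, mural-like and endothelial-like cells. Unlike Tmem173, it had UMIs in neuron-like cells. Its WT level was 25.0 CPM (14.6 to 40.0) in microglia/macrophage-like cells, where 9 of 61 cells held its 17 UMIs. In WT endothelial-like cells it was 7.04 CPM (4.64 to 10.2), with 27 UMIs in 19 of 180 cells, and in the 29 mural-like cells it was 11.9 CPM from 2 UMIs. Cycling progenitor-like cells held 12 UMIs in 12 of 391 WT cells (2.63 CPM, 1.36 to 4.60) and 1 UMI in 251 cKO cells, a log2 ratio of -3.28 (-8.70 to -0.52). Radial glia/astrocyte-like cells, in contrast, held 0 Mb21d1 UMIs in 713 WT cells, which allows up to 0.580 CPM (upper end of the interval 0.714), and 1 UMI in 557 cKO cells. In the neuron-like groups Mb21d1 had 14 UMIs in 4052 WT cells (0.398 CPM) and 10 UMIs in 3940 cKO cells (0.259 CPM). For microglia/macrophage-like cells the counts of 17 and 6 UMIs gave a log2 ratio of -0.96 (-2.59 to 0.45), whose interval includes 0. The stricter filter left 6 WT microglia/macrophage-like cells, with 0 Mb21d1 UMIs, and 66 WT endothelial-like cells with 6 UMIs, or 4.42 CPM.

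Over the 11 groups with at least 20 WT cells, the genes most like Tmem173 in WT level were Trf, Casp8, Parp9, Ucp2 and Sepp1, with Pearson r between 0.954 and 0.967 on log2 (CPM + 1). Those most like Mb21d1 were Cmtm7, Ptpn18, Nmt1, Naa20 and DHRSX, with r between 0.930 and 0.946. They were the top 5 of 12886 genes compared in each case, and the 11 points come from 1 library, so these are descriptions.

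Among groups of at least 20 cells the RNA sensors had their highest WT levels in endothelial-like cells. Their intervals overlapped those of mural-like cells, at 17.9 CPM (3.69 to 52.3) for Ddx58 and 11.9 CPM (1.44 to 43.1) for Ifih1. For Ifih1 the level was also not apart from that of microglia/macrophage-like cells. Ddx58 (ENSMUSG00000040296, chr4:40203773-40239828, minus strand) had 121 of its 242 WT UMIs in endothelial-like cells, 31.5 CPM (26.2 to 37.7), against 4.41 CPM (0.909 to 12.9) in microglia/macrophage-like cells. Ifih1 (ENSMUSG00000026896, chr2:62595798-62646255, minus strand) had 47 of 76 WT UMIs there, 12.3 CPM (9.004 to 16.3), an interval that overlaps that of microglia/macrophage-like cells (7.35 CPM, 2.39 to 17.1). In cKO endothelial-like cells Ddx58 was at 27.5 CPM and Ifih1 at 9.89 CPM, with log2 ratios of -0.20 (-0.76 to 0.34) and -0.31 (-1.29 to 0.58). Neither interval excludes a ratio of 1. In the neuron-like groups Ddx58 held 53 and 58 UMIs, 1.51 and 1.499 CPM. In radial glia and progenitor-like cells together Ddx58 went the other way, from 36 to 56 UMIs (3.43 to 5.81 CPM, log2 ratio 0.76, 0.13 to 1.41). None of the 10 groups taken singly had a Ddx58 interval above 0. Over all kept cells the Ddx58 ratio of -0.46 became -0.10 when cells over 30000 UMIs were left out, among them 40 of the 180 WT and 15 of the 70 cKO endothelial-like cells.

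RIG-I and MDA5 are themselves induced by interferon. The promoter windows of both genes are shown because they hold letters of the interferon response element, searched as GAAA, any 2 bases and GAAA again on both strands, in the 300 bases that end 50 bases after the start in RefSeq (GRCm38.p6). Isg15, a classical interferon target, is shown for comparison. Capitals mark the match, which is 3 overlapping matches in Isg15 and lies on the opposite strand in Ddx58. A match was held by 3.44% of all 32851 RefSeq windows, and of the 9 members with a window (Tmem173 is named only) Ddx58 and Ifih1 do. A match is a description of these letters and not a site.
Ddx58, chr4:40239776-40240075, minus strand: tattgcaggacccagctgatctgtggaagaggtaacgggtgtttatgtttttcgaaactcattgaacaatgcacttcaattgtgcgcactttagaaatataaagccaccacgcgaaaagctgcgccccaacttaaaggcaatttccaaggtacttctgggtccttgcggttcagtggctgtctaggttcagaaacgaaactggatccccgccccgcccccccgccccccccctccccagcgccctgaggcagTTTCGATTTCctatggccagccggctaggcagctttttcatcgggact
Ifih1, chr2:62646206-62646505, minus strand: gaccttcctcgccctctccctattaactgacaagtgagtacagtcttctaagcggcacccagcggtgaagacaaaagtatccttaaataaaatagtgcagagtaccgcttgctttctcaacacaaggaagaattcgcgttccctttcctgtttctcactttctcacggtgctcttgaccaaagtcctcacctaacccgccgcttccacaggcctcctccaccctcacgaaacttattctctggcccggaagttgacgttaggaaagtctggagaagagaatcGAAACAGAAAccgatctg
Isg15, chr4:156200769-156201068, minus strand: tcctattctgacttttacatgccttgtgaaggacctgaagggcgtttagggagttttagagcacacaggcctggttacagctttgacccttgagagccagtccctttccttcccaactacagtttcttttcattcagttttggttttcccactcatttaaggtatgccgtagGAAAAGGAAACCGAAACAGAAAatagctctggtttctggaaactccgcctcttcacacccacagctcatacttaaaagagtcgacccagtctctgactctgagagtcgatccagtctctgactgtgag
In Ddx58 the match covers bases 3 to 12 after the start, in Ifih1 bases 33 to 42, and in Isg15 the last one ends 57 bases before the start. The matches thus lie in the transcribed part of both sensor genes and upstream in Isg15.

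Mavs (ENSMUSG00000037523, chr2:131234063-131248025, plus strand), the adaptor of the RNA arm, had 38.5% of its WT UMIs in radial glia/astrocyte-like cells. Its WT level was 14.3 CPM (11.2 to 18.0) in radial glia/astrocyte-like cells, 10.4 CPM (7.45 to 14.2) in endothelial-like cells and 6.58 CPM (4.44 to 9.39) in cycling progenitor-like cells. The first and the last of these intervals do not overlap, while that of endothelial-like cells overlaps both. In cKO it was lower in each, with 18 UMIs against 74 in radial glia/astrocyte-like cells (log2 ratio -1.98, -2.81 to -1.22). Endothelial-like cells had 4 against 40 UMIs (-1.88, -3.83 to -0.42) and cycling progenitor-like cells 9 against 30 (-1.43, -2.69 to -0.32). Among radial glia/astrocyte-like cells 2.24% of the 12114 genes tested had a lower ratio than Mavs. The neuron-like groups held 17 Mavs UMIs in WT and 0 in cKO, and the interval of the log2 ratio reached up to -2.18. Of the 10 groups, 9 were lower in cKO, and the interval lay below 0 in 6.

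Irf3 (ENSMUSG00000003184, chr7:44997648-45002848, plus strand) was found in every group of at least 20 cells. Its WT level ran from 7.43 CPM in inhibitory neuron-like cells and 7.98 CPM in excitatory neuron-like cells to 33.9 CPM (28.3 to 40.2) in endothelial-like cells and 41.7 CPM (16.8 to 86.0) in mural-like cells. It was lower in cKO in all 10 groups, and the interval lay below 0 in 8 of them, with microglia/macrophage-like and intermediate progenitor-like cells as the exceptions. Excitatory neuron-like cells had 202 WT and 73 cKO UMIs (log2 ratio -1.69, -2.10 to -1.30). Inhibitory neuron-like cells had 65 and 9 (-2.69, -3.88 to -1.67), and radial glia/astrocyte-like cells 143 and 47 (-1.55, -2.05 to -1.06). Cycling progenitor-like cells had 105 and 36 (-1.24, -1.83 to -0.68), and endothelial-like cells 130 and 13 (-1.88, -2.83 to -1.06). In microglia/macrophage-like cells the levels were 13.2 and 12.9 CPM (9 and 6 UMIs). In the excitatory and inhibitory neuron-like, radial glia/astrocyte-like, cycling progenitor-like and endothelial-like groups, 4 members (Tbk1, Irf3, Ddx58 and Rela) had at least 20 UMIs over both libraries in each. Irf3 alone of the 4 had an interval below 0 in all 5 groups, as did 13.0% of the 9267 genes that could be compared so.

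Irf3 starts head to head with Bcl2l12, which encodes a protein of the BCL2 family on the opposite strand, and the genes share 88 exonic bases. The RefSeq promoter window of Irf3 (GRCm38.p6) is shown because the 168 bases in capitals lie also in that of Bcl2l12.
Irf3, chr7:44997398-44997697, plus strand: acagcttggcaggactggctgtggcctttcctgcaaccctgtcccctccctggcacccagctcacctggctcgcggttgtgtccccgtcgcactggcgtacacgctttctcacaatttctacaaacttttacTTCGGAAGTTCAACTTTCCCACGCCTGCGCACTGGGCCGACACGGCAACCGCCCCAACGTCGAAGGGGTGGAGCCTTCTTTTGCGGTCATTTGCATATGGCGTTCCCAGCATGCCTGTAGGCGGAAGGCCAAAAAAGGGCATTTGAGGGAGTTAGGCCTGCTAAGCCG
Bcl2l12 was lower in the cKO library as well, with 751 and 306 UMIs (log2 ratio -1.28, -1.47 to -1.08). Like Irf3 it was lower in endothelial-like cells (172 and 23 UMIs, -1.47, -2.16 to -0.83), in cycling progenitor-like cells (196 and 86, -0.88, -1.27 to -0.51) and in radial glia/astrocyte-like cells (228 and 122, -0.84, -1.17 to -0.52). Microglia/macrophage-like cells held 33 and 9 UMIs of Bcl2l12 (-1.33, -2.58 to -0.23), where Irf3 had 9 and 6 UMIs (-0.04, -1.81 to 1.61), and these intervals overlap. Excitatory neuron-like cells held 12 and 23 Bcl2l12 UMIs, with an interval that includes 0 (0.72, -0.35 to 1.86). It does not overlap that of Irf3 in those cells (-2.10 to -1.30). Inhibitory neuron-like cells held 17 and 11 Bcl2l12 UMIs, also with an interval that includes 0 (-0.46, -1.70 to 0.72). It barely overlaps that of Irf3 there (-3.88 to -1.67). Whether counting used strand is not given in the sources used here.

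**Figure D3:**
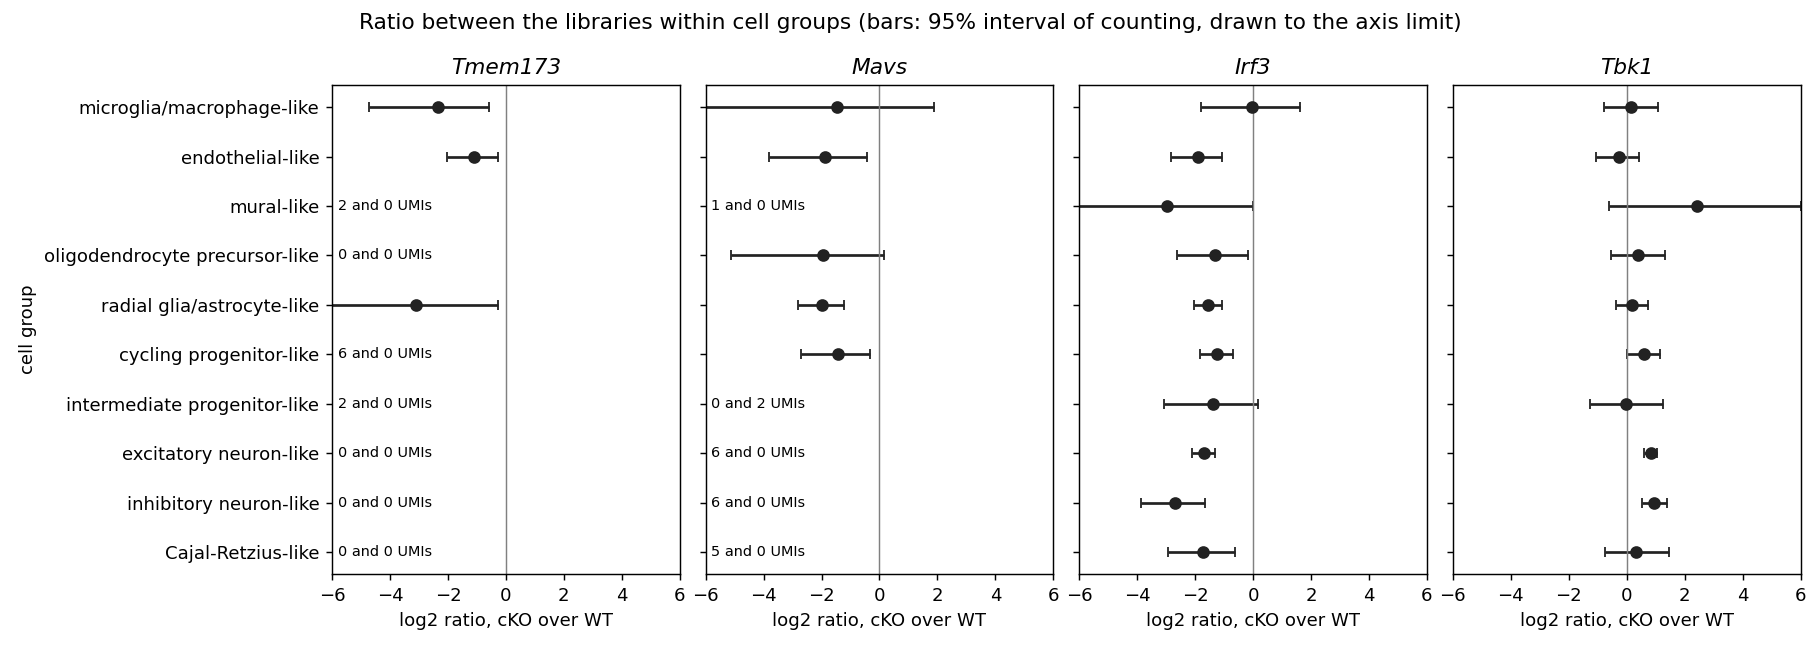
Log2 ratio of cKO over WT (x axis) in 10 cell groups (y axis) for Tmem173, Mavs, Irf3 and Tbk1, with 95% counting intervals. Where a library had no UMI the counts in WT and cKO are printed instead; the Irf3 ratio lies below 0 in all 10 groups, its interval in 8 of them, and the Tbk1 ratio lies above 0 in 8 groups, its interval in 3, the excitatory neuron-like, inhibitory neuron-like and cycling progenitor-like cells.

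Tbk1 (ENSMUSG00000020115, chr10:121546455-121586787, minus strand), the main kinase of the chain, was the one member whose interval over all kept cells lay above 0. In excitatory neuron-like cells it had 230 WT and 476 cKO UMIs, or 9.09 and 16.1 CPM (log2 ratio 0.83, 0.60 to 1.06). In inhibitory neuron-like cells it had 78 and 135 UMIs, or 8.91 and 17.3 CPM (0.96, 0.55 to 1.38). Of the genes tested 7.68% and 5.06% had a higher ratio in these groups. With TMM factors the ratios were 1.01 and 1.10. In cycling progenitor-like cells Tbk1 had 51 and 62 UMIs (0.59, 0.03 to 1.15), and in radial glia/astrocyte-like cells 53 and 58 (0.19, -0.37 to 0.75). The interval included 0 in endothelial-like cells (69 and 21 UMIs, -0.28, -1.06 to 0.44). Its highest WT level was in microglia/macrophage-like cells, 36.7 CPM (23.8 to 54.2), above the 18.0 CPM (upper bound 22.8) of endothelial-like cells, and it stood at 40.7 CPM in cKO microglia/macrophage-like cells.

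Ikbke (ENSMUSG00000042349, chr1:131254343-131279606, minus strand), the second kinase, was rare. Ependymal-like cells, the ciliated lining of the ventricles, held 7 of its 31 WT UMIs in 38 cells, or 11.9 CPM (4.79 to 24.6), and 3 of its 27 cKO UMIs in 6 cells. No Ikbke UMI was left in WT ependymal-like cells under the stricter filter. Microglia/macrophage-like cells held 0 in both libraries, which allows up to 4.41 CPM in WT (upper end of the interval 5.42). Rela (ENSMUSG00000024927, chr19:5637483-5648130, plus strand) had its highest WT level in endothelial-like cells, 66.2 CPM (58.3 to 74.9), and was at 63.5 CPM in cKO (log2 ratio -0.06, -0.42 to 0.29). In WT mural-like cells Rela was at 47.7 CPM (20.6 to 94.0), an interval that overlaps that of endothelial-like cells. In radial glia/astrocyte-like cells it was at 31.5 and 29.8 CPM. Excitatory neuron-like cells had 281 and 384 Rela UMIs, or 11.1 and 13.01 CPM (0.23, 0.00 to 0.46). Over all kept cells the Rela interval included 0 and that of Irf3 did not.

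Because single cells were sequenced, it could be asked which cells held a sensor, an adaptor and a kinase together. Few did. In WT 70.9% of kept cells held no member UMI and 22.4% held exactly 1 member, and in cKO the shares were 71.0% and 24.0%. A sensor, an adaptor and a kinase were found together in 27 of 6601 WT cells (0.409%, 0.270 to 0.595) and in 4 of 5974 cKO cells (0.0670%, 0.0182 to 0.171). Of the 27 WT cells, 22 were endothelial-like, 3 microglia/macrophage-like, 1 granulocyte-like and 1 ependymal-like. Of the 4 cKO cells, 3 were endothelial-like and 1 microglia/macrophage-like. No neuron, radial glia or progenitor-like cell of either library held all 3 kinds. The kinases counted were Tbk1 and Ikbke. IKKβ, which the study reports to bind STING in neural progenitor cells, was not among them.

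Most of these cells were thus endothelial-like. All 3 kinds were held by 12.2% of WT endothelial-like cells (22 of 180, 7.82 to 17.9) and 4.29% of those in cKO (3 of 70, 0.893 to 12.02), and these intervals overlap. At least 4 of the 10 members were held by 29.4% of WT and 15.7% of cKO endothelial-like cells. The RNA arm (an RNA sensor, Mavs and a kinase) was complete in 10 WT endothelial-like cells, and the DNA arm (Mb21d1, Tmem173 and a kinase) in 5. In cKO the counts were 0 and 1.

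Mb21d1 and Tmem173, the DNA sensor and its adaptor, were found together in 12 WT cells, of which 8 were endothelial-like, 2 microglia/macrophage-like, 1 mural-like and 1 granulocyte-like. Only 2 cKO cells held both, 1 endothelial-like and 1 microglia/macrophage-like. The WT cells had between 9891 and 83025 UMIs. The deepest of these, an endothelial-like cell, held 1 Mb21d1, 1 Tmem173, 3 Irf3, 3 Ddx58 and 5 Rela UMIs but no UMI of Tbk1. None of the 16 neural WT cells with a Tmem173 UMI held a Mb21d1 UMI, and 3 of them held a Tbk1 UMI.

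Depth moved with these counts. WT endothelial-like cells with all 3 kinds had a median of 44672.5 UMIs, against 13572 in the other 158. WT endothelial-like cells with a Tmem173 UMI held a Tbk1 UMI in 51.0% of cases (26 of 51, 36.6 to 65.2), against 22.5% (29 of 129, 15.6 to 30.7) of those without, but their median depths were 28521 and 12347 UMIs. When each cell was thinned to 10000 UMIs, a depth chosen after the data were seen, Tbk1 was held by 2 of 21 endothelial-like cells with Tmem173 and by 15 of 99 without. The intervals then overlapped (1.17 to 30.4% and 8.74 to 23.8%). At 2000 UMIs per cell, with 490 WT and 502 cKO cells too shallow, and at 4000, with 1340 and 1056 too shallow, no cell of either library held all 3 kinds.

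At 10000 UMIs per cell, which 1750 WT and 1857 cKO cells reached, shares of cells with each kind were compared again. A sensor was held by 43.3% of WT endothelial-like cells (52 of 120, 34.3 to 52.7), by 5.12% of radial glia and progenitor-like cells (17 of 332, 3.01 to 8.07) and by 2.81% of neuron-like cells (33 of 1173, 1.94 to 3.93). An adaptor was held by 22.5%, 10.2% and 0.682% of the same cells, and a kinase by 14.2%, 10.5% and 9.55%. The kinase intervals of these 3 sets overlapped, while the sensor interval of endothelial-like cells overlapped neither of the others. For adaptors this held against neuron-like cells, but not against radial glia/astrocyte-like cells alone, where 17 of 96 held one (17.7%, 10.7 to 26.8, beside 15.4 to 31.0 in endothelial-like cells). The pooled 10.2% also holds cycling progenitor-like cells, at 7.69%, and 15 intermediate progenitor-like cells with none. In the 29 WT microglia/macrophage-like cells a sensor was held by 24.1% (10.3 to 43.5), an adaptor by 31.0% (15.3 to 50.8) and a kinase by 27.6% (12.7 to 47.2). Each of these intervals overlapped that of endothelial-like cells. With all UMIs of each cell, 50.6%, 35.6% and 31.1% of WT endothelial-like cells held a sensor, an adaptor and a kinase, against 2.70%, 2.57% and 8.18% of WT cells of the neural groups. Sensor and adaptor together were found in 13 of the 120 endothelial-like cells and in 0 of the 332 radial glia and progenitor-like cells, which allows up to 1.10% by the Clopper-Pearson interval. Such a pair could join different arms, and the DNA pair, Mb21d1 with Tmem173, was held by 1 of the 120. All 3 kinds remained in 1 of 120 endothelial-like and in 3 of 29 microglia/macrophage-like WT cells, with overlapping intervals (0.0211 to 4.56% and 2.19 to 27.4%). In cKO it was 1 of 46 and 0 of 23. In cKO, an adaptor was held by 3.85% of radial glia and progenitor-like cells (15 of 390, 2.17 to 6.26), below the WT interval of 7.20 to 14.02%. Within the pool the intervals did not overlap in radial glia/astrocyte-like cells (10 of 171 in cKO, 2.84 to 10.5), and they did in cycling progenitor-like cells (4.54 to 12.03 in WT and 0.573 to 5.28 in cKO). An adaptor here is Tmem173 or Mavs, and mainly Mavs in these cells. With all UMIs, WT radial glia/astrocyte-like cells had 14.3 CPM of Mavs and 1.74 CPM of Tmem173. A kinase was held by 14.9% of cKO neuron-like cells (12.97 to 16.9) against 9.55% in WT (7.93 to 11.4), and no cKO neuron-like cell of 1313 held an adaptor. In WT neuron-like cells every adaptor UMI was of Mavs, since Tmem173 had none in either library.

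**Figure D4:**
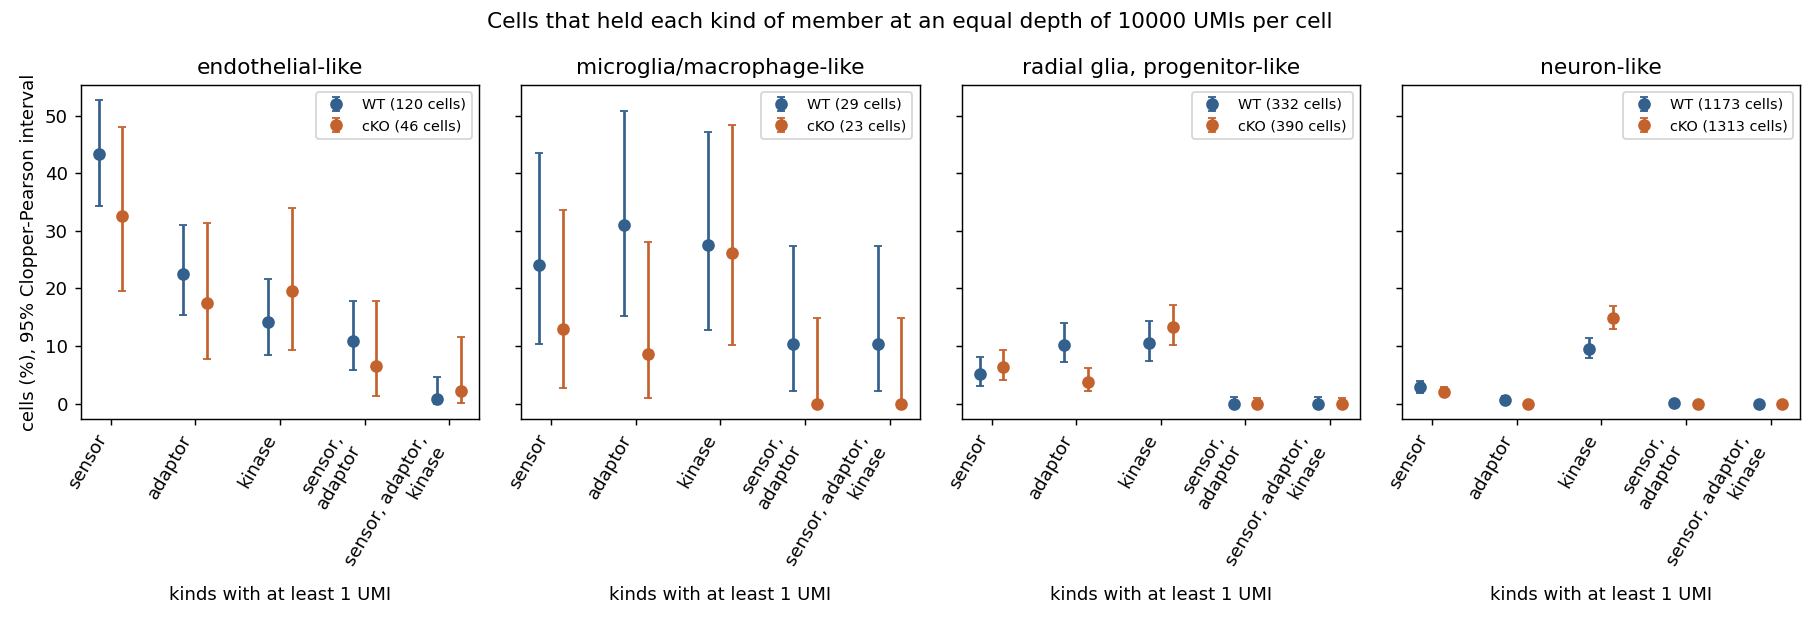
Share of cells (y axis, percent, with 95% Clopper-Pearson intervals) that held a sensor, an adaptor, a kinase or these together (x axis) after thinning to 10000 UMIs per cell, in 4 sets of cells of the WT and cKO libraries. Endothelial-like cells stand highest for sensors in both libraries (43.3% in WT), with intervals that overlap those of microglia/macrophage-like cells. Neuron-like cells hold kinases (9.55% in WT) with hardly any adaptor.

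The wider pathway was described by 8 lists, whose counts are read against the shares of all genes given above: 21.7% 2-fold lower in all, and 42.8%, 27.0% and 7.25% by rising abundance. Interferon targets, the genes switched on by the chain's output, had 14 of 18 genes at least 2-fold lower in cKO, none higher, and a median log2 ratio of -1.23, beside -0.28 over all genes. Of the 18, 13 had 20 to under 200 UMIs, where 9 were 2-fold lower beside 42.8% of all such genes and a median of -0.82, and 4 had 200 to under 2000 UMIs, where all 4 were lower beside 27.0%. With TMM factors 8 of the 18 were 2-fold lower, beside 15.2% of all genes. Among the 14, Ifitm3, an antiviral membrane protein, had 1991 and 787 UMIs (log2 ratio -1.32), Bst2, which tethers virus particles, 554 and 214 (-1.35), Isg15, a ubiquitin-like modifier, 63 and 13 (-2.26), and Oasl2 87 and 10 (-3.10). Ifit2, Ifit3, Usp18, Ifi27, Ifi44, Rtp4, Xaf1, Cxcl10, Gbp2 and Gbp7 made up the rest, from -2.68 for Usp18 to -1.07 for Xaf1. Within endothelial-like cells the intervals of 5 of these 14 lay below 0 (Ifitm3, Bst2, Oasl2, Ifi27 and Gbp7), 2 had no cKO UMI there, and 3 had ratios above 0, Rtp4 (57 and 23 UMIs, 0.13), Xaf1 (74 and 30, 0.13) and Ifit2 (18 and 7, 0.07), with intervals that include 0. The share of all genes with such an interval in these cells was not computed. The 14 were picked by sums that hold these same UMIs, so the count of 5 is a description only. The summed level of the list was 543 CPM in WT and 364 CPM in cKO endothelial-like cells (log2 ratio -0.58, -0.72 to -0.44), where Ifitm3 gave 1097 of 2084 WT UMIs and 225 of 515 in cKO, and 9.01 and 4.27 CPM in excitatory neuron-like cells. In excitatory neuron-like cells Ifit2 alone gave 94 of 228 WT UMIs and 11 of 126 in cKO, and so most of that difference. Mural-like cells had the highest sum, 1187 and 1088 CPM, and microglia/macrophage-like cells 507 and 328 CPM. The number of endothelial-like cells, 180 and 70, moved with the sum over all cells, and its part in the result was not tested.

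The interferons themselves were almost absent. Ifnb1 and 4 interferon alpha genes had 0 UMIs in all kept cells, and Ifng had 3 in WT and 5 in cKO. Of 13 interferon factors and receptors, 5 were 2-fold lower, among them Irf2, Irf7, Irf8 and Stat6, none was higher, and the median was -0.69. By class it was 2 of 3 genes under 200 UMIs, beside 42.8% of all genes, 3 of 7 under 2000 UMIs, beside 27.0%, and 0 of 3 above. Irf2, an antagonist of interferon signalling, had 894 and 141 UMIs (log2 ratio -2.65) and was lower in excitatory neuron-like (143 and 25 UMIs) as in endothelial-like cells (265 and 22).

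Of the 18 other nucleic acid sensors, 7 were 2-fold lower and none higher, with a median of -0.67. By class it was 4 of 5 genes under 200 UMIs, beside 42.8% of all genes, 2 of 9 under 2000 UMIs, beside 27.0%, and 1 of 4 above, beside 7.25%. The 7 were Ifi203, Ifi204, Dhx58, Tlr3, Xrcc6, Prkdc and Rad50, of which the last 3 are proteins of DNA break repair. Rad50 had 1814 and 320 UMIs (-2.48). Ifi203 and Ifi204 belong to a family of similar copies, so their counts are uncertain. Of 19 adaptors and regulators 3 were lower (Ticam1, Myd88 and Trim25), with a median of -0.37. This share lies below the 21.7% of all genes, and none of the 3 was 2-fold lower with TMM factors. Traf6, a ubiquitin ligase on the way to NF-κB, was the exception of the list with 705 WT and 1623 cKO UMIs (1.22, 1.09 to 1.35). It was higher in excitatory neuron-like cells (229 and 742 UMIs, 1.47) and in endothelial-like cells (76 and 61 UMIs, or 19.8 and 43.1 CPM, 1.12).

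The 14 genes of the kinase and NF-κB complex had a median of 0.05, with Nfkb2 (-2.28), Nfkbie (-1.81) and Tnfaip3 (-1.03) 2-fold lower, which were all 3 genes of the list with under 200 UMIs, a class with 42.8% of all genes as low. Of 10 genes in the list of nucleases and clearance, which also holds genes that are not nucleases, 3 were lower. They were Rnaseh2a, Rnaseh2c and Dnase2a, between -1.26 and -1.03, and none with TMM factors. The list median was -0.67. Of the 3, 2 were among the 7 list genes of 2000 UMIs or more, where 7.25% of all genes were as low. The other was among the 2 list genes of the class below, beside 27.0%. Of 13 NF-κB targets 6 were lower (Il1b, Ccl2, Ccl5, Cxcl1, Cxcl2 and Birc3), and Ccl3, a chemokine of microglia, was higher, with a median of -0.86. The 6 were among 8 targets with under 200 UMIs, where 42.8% of all genes were as low and the median was -0.82, and none of the other 5 was 2-fold lower. Ccl3 lay in microglia/macrophage-like cells, with 258 UMIs in 61 WT cells and 568 in 32 cKO cells (log2 ratio 1.68, 1.47 to 1.90). In those cells Ifitm3 went the other way, from 62 to 4 UMIs (-3.41, -5.33 to -1.98), as did Gbp7, from 30 to 7 (-1.55, -2.99 to -0.34). Other interferon targets there had intervals that include 0, among them Bst2 (130 and 74 UMIs, -0.27, -0.70 to 0.15) and Ifi27 (34 and 23, -0.02, -0.85 to 0.79).

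**Figure D5:**
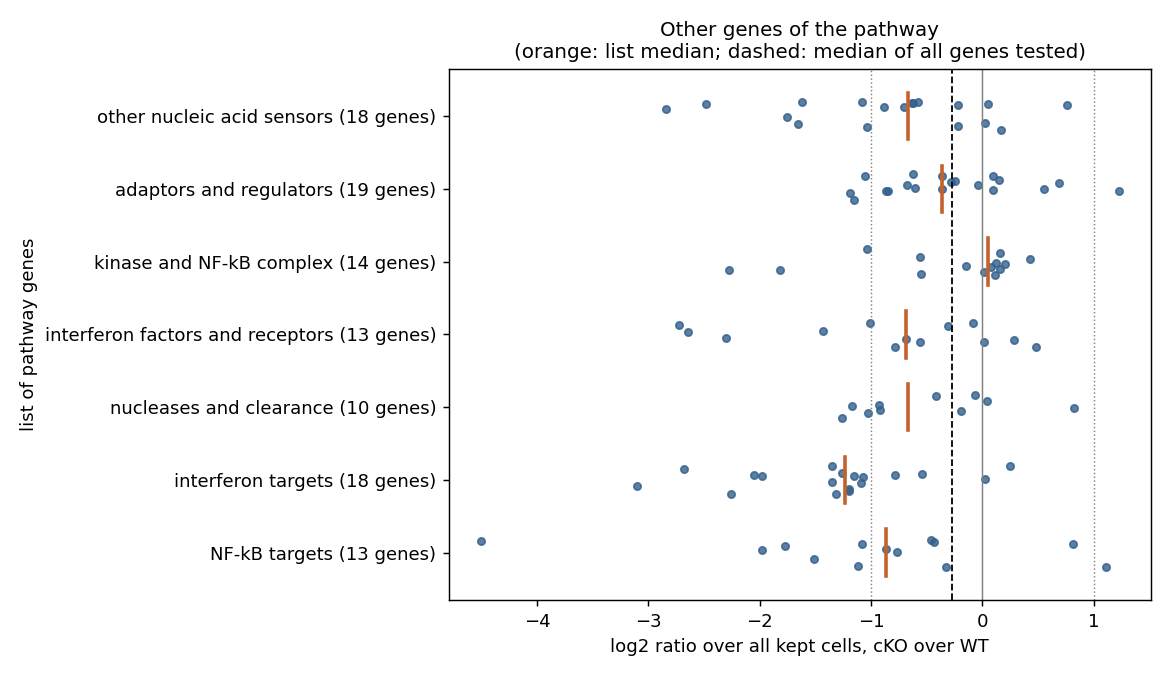
Log2 ratio of cKO over WT over all kept cells (x axis) for each gene with at least 20 UMIs in 7 lists of pathway genes (y axis); the list of interferons had no such gene. Orange bars are list medians, the dashed line is the median of all genes tested (-0.28) and the dotted lines are the 2-fold limits; interferon targets have the lowest median (-1.23) and the kinase and NF-κB complex the highest (0.05).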

How the data were processed

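RNA of single cells was measured in 1 WT and 1 cKO library. Per the file headers the authors' deposited UMI count matrices were written by Cell Ranger 3.0.1; the submitters' notes name STAR, Cell Ranger 2, Seurat and the build mm9. The counts are raw whole UMIs per gene and barcode, 69554624 for WT (10715 barcodes) and 67448785 for cKO (9198). Cells were kept with at least 500 genes, at most 10% mitochondrial UMIs and a Scrublet score (scanpy 1.11.5) under 0.25. This limit was set after the automatic one called 0 doublets in cKO, and it removed 165 WT and 106 cKO cells. A cell joined the group of which it held the highest share of markers, if at least 35%, and ties were left without a group. Cycling markers were handled apart. Radial glia/astrocyte-like, intermediate progenitor-like, neuron-like and ungrouped cells with at least 35% of them were placed as cycling progenitor-like. Intermediate progenitor-like cells had also to hold Eomes or Neurog2. UMIs were summed per group and given as CPM with exact Poisson intervals, ratios with conditional binomial and shares with Clopper-Pearson intervals (scipy 1.17.1). TMM factors (edgeR 4.0.16, R 4.3.3) were used for scaling alone. No significance test was run. The code for ratios and intervals was checked on simulated counts. Genes were matched by identifier to GENCODE M21 (GRCm38), which held 27722 of the 27998. Transcripts of the members alone were compared with all others by BLAST 2.17.0 at 95% identity over 300 bases, where among the 10 members Trex1 matched another gene, Atrip. Since mm9 is another build, no coordinate comes from the files.

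The members and lists were chosen with earlier results of these data known. Besides the members, the text names list genes with at least 20 UMIs past 2-fold and the 5 genes most like Tmem173 and Mb21d1 in WT among those with at least 100 UMIs. Bcl2l12 and Atrip were named for their overlap with members. Alx4, a homeobox gene with 16 UMIs, stood in the list of NF-κB targets but was not counted among the 13, being under 20 UMIs. Mx2 was not matched. The values of 1 list gene are not reported here. Groups under 20 cells were left out except where named. Not used were the authors' matrix of both libraries combined and their marker table, which holds log fold changes and p-values of clusters.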

Additional observations from a re-analysis of the deposited data

How the results depend on the processing

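No paired analysis was possible because each genotype has 1 library and the labels give no replicate numbers. The ratios of Tmem173, Mavs, Mb21d1 and Irf3 over all kept cells stayed past 2-fold lower with every barcode, a stricter cell filter, doublets kept, TMM factors, a total without mitochondrial, ribosomal protein and haemoglobin genes and, chosen after seeing the data, without cells over 30000 UMIs. A stricter marker gate was tried on levels and ratios by group, and thinning, to 10000 UMIs chosen after seeing the data, on cells that held kinds together. TMM factors moved the log2 ratios of Tbk1 to 0.89, of Irf3 to -1.51 and of Rela to 0.14. The stricter filter, which kept 1636 WT and 1319 cKO cells, moved Tbk1 to 0.47, Irf3 to -1.51 and Mavs to -1.64. Without cells over 30000 UMIs the ratio of Ddx58 was -0.10. The share of cells with sensor, adaptor and kinase depended on depth: it was 0% in both libraries at 2000 and at 4000 UMIs per cell, 0.229% in WT at 10000, and 0.170% in WT and 0.0171% in cKO without cells over 30000 UMIs, and 0% in cKO under the stricter filter. The count of members 2-fold lower was 4 with TMM factors and with at least 50 UMIs, and that of members 2-fold higher 0. With TMM factors the interferon targets 2-fold lower were 8, in place of 14, and the lower adaptors and regulators 0, in place of 3. The lower genes in the list of nucleases and clearance were 0, in place of 3. In turn 1 gene of that list, 1 other sensor and 2 NF-κB targets were 2-fold higher. The stricter filter also moved the Tmem173 log2 ratio in endothelial-like cells to -0.16, on 3 cKO UMIs, and its WT level in microglia/macrophage-like cells to 15.0 CPM. The cause of these shifts was not tested. The combined matrix was not run, since its barcodes carry no sample name. Depth limits what can be said of neurons, where Tmem173 had 0 UMIs, and of every group under 40 cells.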
